A study of Mus musculus with 202 samples.

Results

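The anaphase-promoting complex, or cyclosome, is a multi-subunit ubiquitin ligase, and the genes described here are 8 of its core subunits (Anapc1, Anapc2, Anapc4, Anapc5, Cdc16, Cdc23, Cdc26 and Cdc27) with the 2 ubiquitin-conjugating enzymes that work with it, Ube2c and Ube2s. They were chosen by symbol and not by a cut on measured values, though with earlier results of these data known. All 10 of the 10 symbols were found among the 23997 gene symbols of the count table. The libraries are polyA RNA of mouse oocytes of strain C57Bl/6J at metaphase II, the stage at which an ovulated egg waits for fertilisation, made oocyte by oocyte with Smart-seq2, a full-length method without molecular tags. Groups are named by generation and by what the founding F0 female was given. Her diet was control (CD) or high in fat and high in sugar (HFHS), and her hormone treatment was vehicle (Veh) or dihydrotestosterone (DHT), an androgen that is not turned into oestrogen. F1, F2 and F3 are descendants of those females, the series' title places the exposure before birth, and every oocyte donor was thus a descendant and not the treated animal. No age and no other genotype was given in the sources used here.

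Of 202 libraries, 157 reached 100000 gene counts with 4000 genes or more detected, and these were used. F1 gave 45 of them: 10 oocytes of CD+Veh, 8 of CD+DHT, 14 of HFHS+Veh, 13 of HFHS+DHT. F2 gave 66: 16 of CD+Veh, 25 of CD+DHT, 20 of HFHS+Veh, 5 of HFHS+DHT. F3 gave 46: 20 of CD+Veh, 13 of CD+DHT, 13 of HFHS+Veh. Titles name an animal, read here from the number before the point, for 4 F2 CD+Veh, 5 F2 CD+DHT and 4 F2 HFHS+Veh animals and for 2 F3 HFHS+Veh animals with kept oocytes. In the other groups no animal is named, so oocytes may share a mother, each group counts as 1 sample, and no test between them was made. For 36 libraries the title and another label disagree: 15 of F1 HFHS+Veh and 5 of F2 HFHS+DHT on the hormone, and 8 of F2 HFHS+Veh and 8 of F3 HFHS+Veh on the generation. Groups here follow the titles.

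The complex attaches ubiquitin chains to securin and to B-type cyclins, whose destruction lets sister chromatids part and lets a cell leave M phase. In an egg at metaphase II the complex is held back by the inhibitor Emi2, encoded by Fbxo43, until sperm entry releases it. Its catalytic part holds the cullin-like subunit Anapc2, and Anapc1, Anapc4 and Anapc5 form the platform. An arc of subunits with tetratricopeptide repeats, Cdc27, Cdc16 and Cdc23 among them, receives the activator Cdc20, and the small protein Cdc26 steadies Cdc16 in that arc. Ube2c starts the ubiquitin chain and Ube2s lengthens it.

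The kept libraries held 133654 to 16359078 gene counts (median 2122239) and 4603 to 13420 detected genes. All 12 oocyte markers examined, among them the zona pellucida genes and Gdf9, had counts in every group. In CPM (counts per 1000000 gene counts), 4 kept libraries stood apart, with sums over these markers of 209.8 CPM (F3 CD+Veh oocyte 21), 5032 and 8058 CPM (F1 CD+Veh oocytes 8 and 7) and 6115 CPM (F2 HFHS+Veh animal 4 oocyte 2), against at least 12341 CPM in the other 153. Their spike-ins were 14.33%, 4.33%, 2.66% and 3.46% of counts in that order, against at most 0.801% in the others. They are the 4 oocytes in which Cdc26 had no count. Comparisons that use them are also given without them, an alternative chosen after seeing the data. Oocyte 21 of F3 CD+Veh also had a cumulus marker sum of 35633 CPM, Cdc23 and Ube2c at 0, the lowest Cdc27 of F3 (109.8 CPM) and the highest Cdc16 (300.2 CPM) and Anapc4 (604 CPM) of F3. Of 32 cumulus and granulosa cell markers, which would come from the cells that surround the oocyte, 24 had a count in F1 CD+Veh, 26 in F2 CD+Veh and 26 in F3 CD+Veh. Their summed level was carried by Serpine2, and the median of the sum was 1190.2 CPM in F1 CD+Veh, 861 CPM in F2 CD+Veh and 1791 CPM in F3 CD+Veh. Areg, Ereg, Lhcgr, Amh and Pgr were at 0 in these 3 groups. The oocyte marker sum was lower in F3, with group medians of 15983 to 19278 CPM, against 20612 to 35540 CPM in F1 and F2. The F3 libraries also differed from the others in genes outside the complex: Wtap, a subunit of the RNA methyltransferase, had group medians of 45.1 to 66.5 CPM in F3 and of 5089 to 14069 CPM in F1 and F2. The part of these differences in the results below was not tested.

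Ube2c is the member whose level differed most between F3 CD+Veh and F2 CD+Veh, so the sequence before its start is shown. Its transcript has 0.925 kb, and genes under 1 kb had a median log2 difference of -2.18 in that comparison. The part of the sequence in the level of Ube2c was not tested. The gene lies on the forward strand at chr2:164769898-164778822 (GRCm38). The 219 bases printed run from 250 to 32 bases before the RefSeq start (RefSeq, GRCm38.p6, chr2:164769679-164769897, forward strand, 0 annotated exons), and capitals mark each CCAAT on either strand, the letters bound by the factor NF-Y.
Ube2c: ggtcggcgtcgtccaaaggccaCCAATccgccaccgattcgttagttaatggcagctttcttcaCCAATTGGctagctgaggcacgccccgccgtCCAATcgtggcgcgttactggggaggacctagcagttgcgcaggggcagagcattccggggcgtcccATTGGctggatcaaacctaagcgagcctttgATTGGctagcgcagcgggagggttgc

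The window held 3 CCAAT on the forward strand and 3 on the reverse strand, with a pair overlapping in CCAATTGG. The same window was searched on both strands in the 9 members with an entry in the RefSeq promoter table: Ube2c and Cdc27 held a CCAAT there, as did 30.9% of 32851 promoters. TTTGAA, the letters of the cell cycle genes homology region, was in 0 of the 9, against 14.54% of promoters, and Ube2c had it 24 bases before the start, outside the window. GGGCGG, the GC box, was in 3 of the 9 (Anapc4, Cdc26 and Ube2s), against 28.3% of promoters.

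Levels of different genes can be compared only per transcript length, so the order of the members was read from the deposited RPKM (reads scaled to transcript length and library total). Over the 157 oocytes Cdc26 had the highest median, 86.7 RPKM (quartiles 40.2 and 109), and Cdc27 followed with 63.5 RPKM (54.3 and 88.5). Ube2c had a median of 35.9 RPKM, Anapc4 of 28.7 RPKM, Anapc1 of 14.7 RPKM and Anapc5 of 13.15 RPKM. Lower down came Cdc16 at 7.46 RPKM, Cdc23 at 3.23 RPKM, Ube2s at 1.99 RPKM and Anapc2, the cullin-like subunit, at 1.74 RPKM. The chain-starting enzyme exceeded the chain-lengthening one in 155 of 157 oocytes.

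Neighbours in that order were less far apart. Cdc26 exceeded Cdc27 in 101 of 157 oocytes, Ube2c exceeded Anapc4 in 92, Anapc1 exceeded Anapc5 in 92 and Ube2s exceeded Anapc2 in 93, so these pairs overlap widely. Anapc4 exceeded Anapc1 in 137 oocytes, Cdc27 exceeded Ube2c in 123 and Anapc5 exceeded Cdc16 in 118. The order also depended on the generation. In all 8 groups of F1 and F2 the 4 highest medians belonged, from the top, to Cdc26, Cdc27, Ube2c and Anapc4. In all 3 F3 groups Cdc27 was at the top, Anapc1 was the fourth, and Ube2c stood between ranks 5 and 7.

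**Figure D1:**
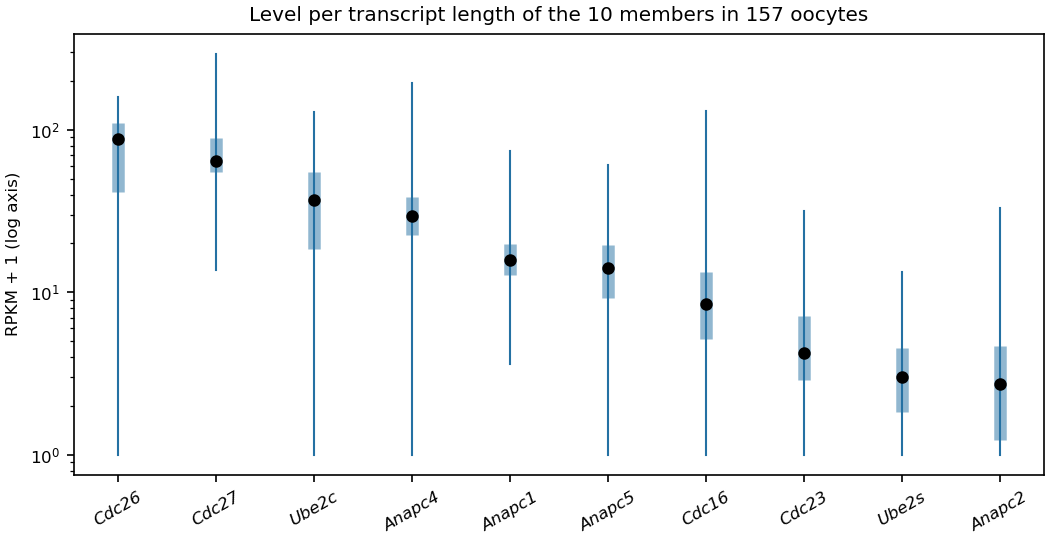
Deposited RPKM of each member over the 157 kept oocytes, plotted as RPKM + 1 on a log axis. Dots are medians, thick bars quartiles and thin lines the lowest and highest oocyte, and members are ordered by median, from Cdc26 (86.7 RPKM) to Anapc2 (1.74 RPKM).

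Few reads stood behind the lowest members. Anapc2 had no count in 35 of 157 oocytes, Ube2s in 26, Cdc16 in 11, Cdc23 in 6, Cdc26 in 4, Anapc5 and Ube2c in 2 each and Anapc4 in 1, while Anapc1 and Cdc27 had counts in all. Reads from overlapping genes on the opposite strand (Kif20a at Cdc23, Slc31a1 at Cdc26, Tnnc2 at Ube2c and Rpl28 at Ube2s) cannot be told apart from the members' own, since no strand setting is given in the sources used here.

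Within a gene, CPM were compared between oocytes. The share of all genes that separate the generations to a like degree was not computed. The counts of oocytes below are thus descriptions, and no result particular to the members is read from them. Cdc27 (chr11:104502745-104550620, reverse strand, GRCm38), the repeat protein that docks the activator, ran from 75.8 to 538 CPM in the 45 F1 oocytes (median 345), from 132 to 596 CPM in the 66 F2 oocytes (median 319) and from 109.8 to 1689 CPM in the 46 F3 oocytes (median 708). In F3, 44 of 46 oocytes lay above the median of F1 and F2 together, and 33 of 46 lay above their highest oocyte. Without the 4 libraries that stood apart the lowest oocyte was at 255 CPM in F1 and at 334 CPM in F3, and 33 of 45 F3 oocytes lay above the highest of F1 and F2. Group medians were 336 to 362 CPM in the 4 F1 groups, 312 to 396 CPM in the 4 F2 groups, and 731, 622 and 792 CPM in F3 CD+Veh, CD+DHT and HFHS+Veh. The 8 lower groups thus lay close together and the 3 F3 groups above them.

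Cdc26 (chr4:62383654-62408642, reverse strand), the small partner of Cdc16, went the other way. It ran from 0 to 115 CPM in F1 (median 84.3), from 0 to 126 CPM in F2 (median 76.7) and from 0 to 58.4 CPM in F3 (median 22.23). None of the 46 F3 oocytes (0 of 46) reached the median of the F1 and F2 oocytes, and 94 of 111 F1 and F2 oocytes lay above the highest F3 oocyte. Without the 4 libraries that stood apart its lowest oocyte was at 37.7 CPM in F1 and at 3.47 CPM in F3, and 94 of 108 lay above the highest F3 oocyte. Its group medians were 68.5 to 89.8 CPM in F1, 72.8 to 79.7 CPM in F2 and 18.8 to 29.3 CPM in F3. Accordingly the number of Cdc27 counts per Cdc26 count, which does not depend on library size, had group medians of 3.96 to 5.24 in F1 and F2 and of 23.1 to 37.8 in F3.

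Ube2c, the chain starter, ran from 3.44 to 111 CPM in F1 (median 46.3), from 0 to 118 CPM in F2 (median 40.6) and from 0 to 41.4 CPM in F3 (median 12.6). Again 0 of 46 F3 oocytes lay above the median of F1 and F2, and 59 of 111 F1 and F2 oocytes lay above the highest F3 oocyte. Without the libraries that stood apart the latter was 59 of 108, and the lowest oocyte was at 10.94 CPM in F1 and at 1.16 CPM in F3. The number of Cdc26 counts per Ube2c count had medians of 1.42 to 2.44 in all 11 groups, so this ratio did not separate the generations. Ube2s, the chain extender, had medians of 2.95, 2.27 and 1.22 CPM in F1, F2 and F3, and 38 of 46 F3 oocytes lay below the median of the others, at a level of few reads.

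The remaining subunits were less clearly separated. Anapc1 (chr2:128610104-128687391, reverse strand), the largest platform subunit, had medians of 120.2, 126 and 195 CPM in F1, F2 and F3, with 37 of 46 F3 oocytes above the median of the others and 15 above their highest. Cdc16 (chr8:13757676-13781938, forward strand) had medians of 15.1, 15.9 and 30.2 CPM, with 30 of 46 F3 oocytes above. Cdc23 had medians of 12.5, 8.5 and 15.4 CPM, with 26 of 46 above. The platform subunits Anapc4 (70.5, 76.3 and 89.4 CPM) and Anapc5 (37.9, 33.7 and 36.4 CPM) had 29 and 25 of 46 F3 oocytes above that median. Anapc2 had medians of 7.38, 6.87 and 0.778 CPM, and 37 of 46 F3 oocytes lay below.

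**Figure D2:**
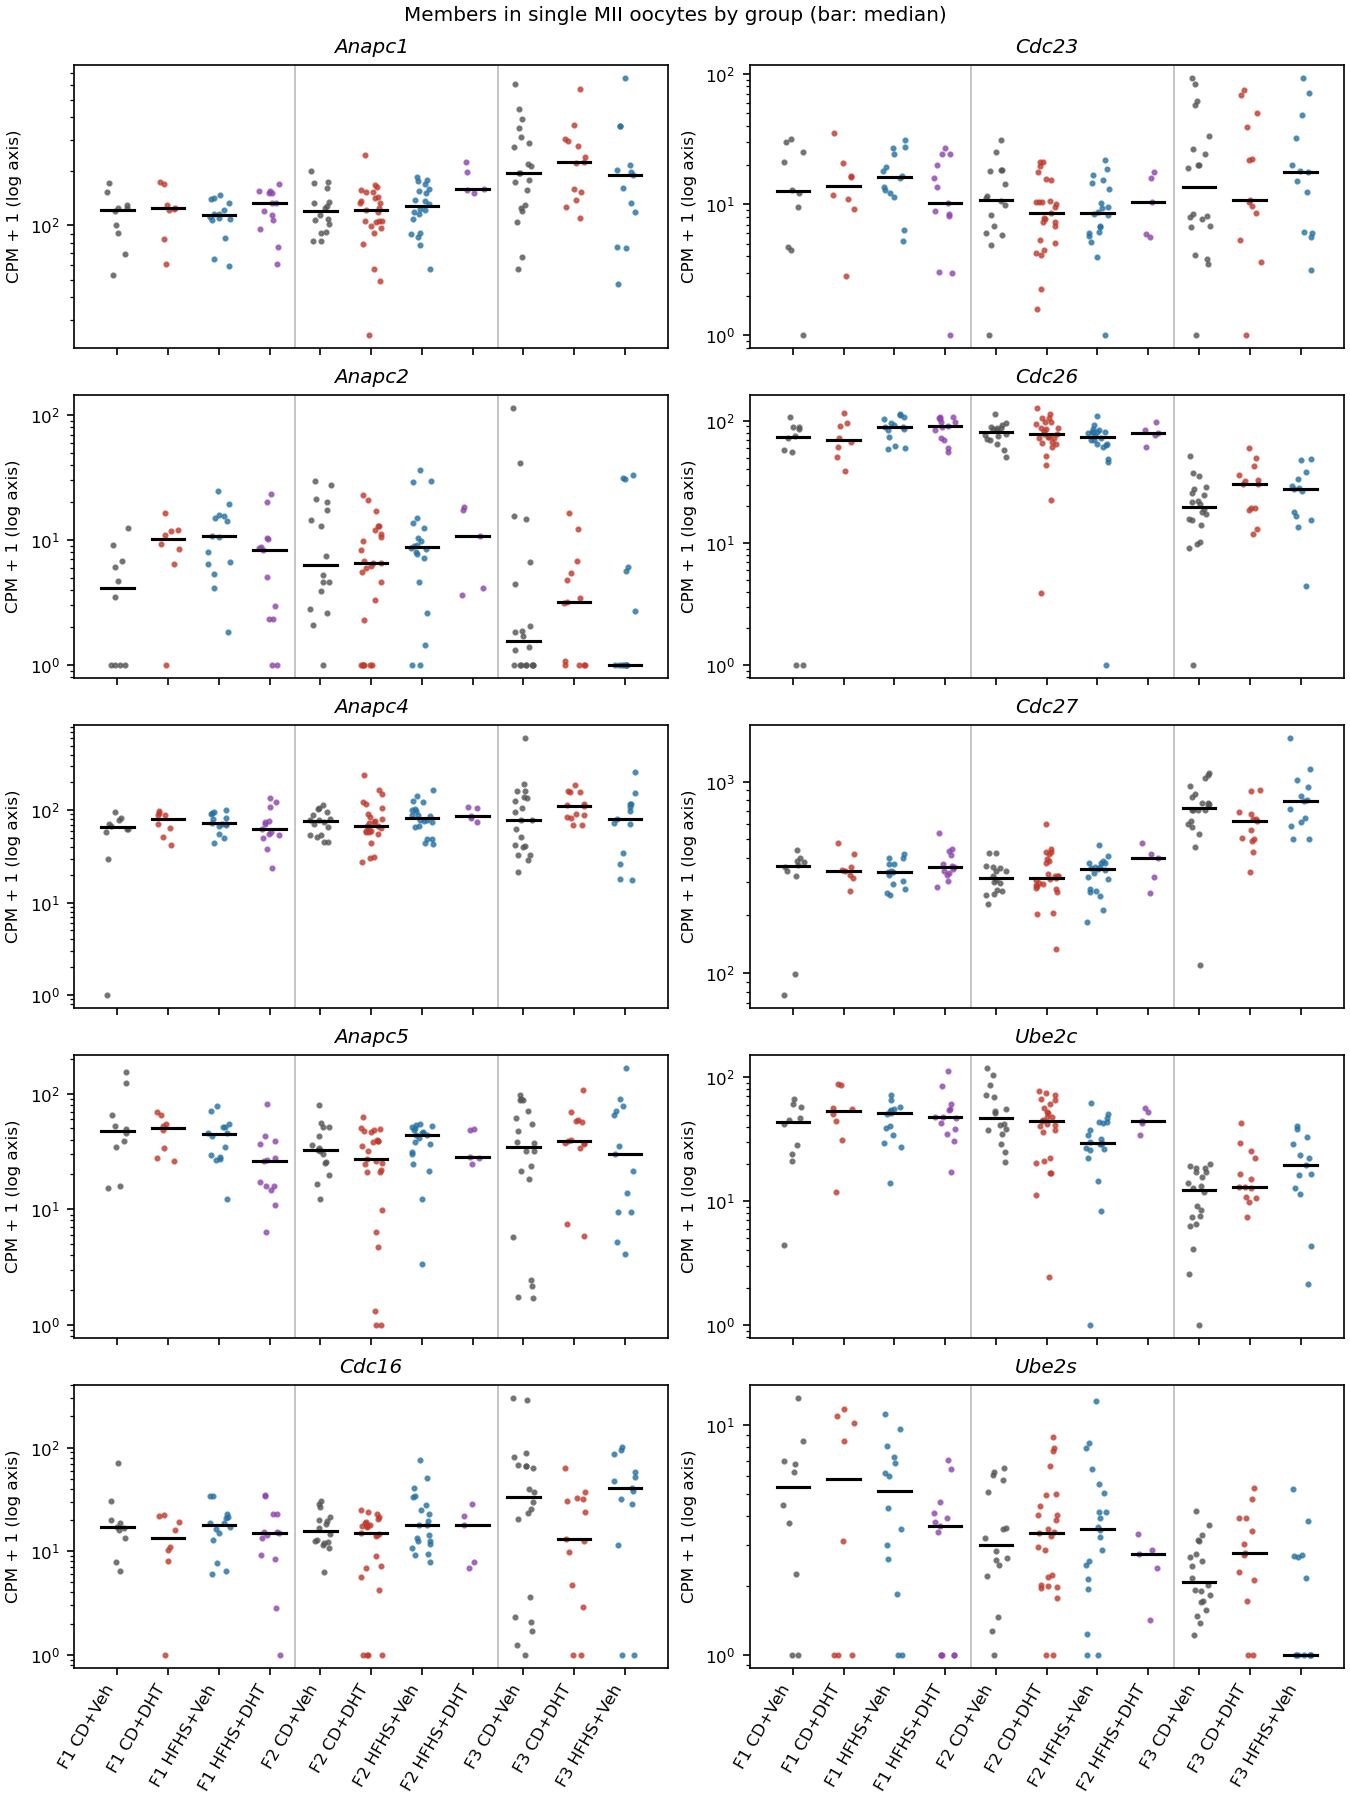
CPM + 1 of each member in each kept oocyte, on log axes, for the 11 groups in order of generation. Points are oocytes coloured by treatment of the F0 female and bars are group medians; Cdc26 and Ube2c are lower, and Cdc27 is higher, in the 3 F3 groups.

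In F2 the animals allowed a test of the treatments, with counts summed per animal and edgeR's quasi-likelihood test fitted to 11963 genes. None of the 10 members passed in any of the 3 comparisons, where 0% of all genes did. CD+DHT against CD+Veh had 220 genes at an unadjusted p under 0.05, HFHS+Veh against CD+Veh had 118 and CD+DHT against HFHS+Veh had 125, and of the members 0, 0 and 1 were among them. DESeq2 called 1 gene in each comparison (Gjb6, Gpc5 and Tmem255a, named after their values were seen) and 0 members.

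Cdc27 had the smallest spread of the members over the animals. Its level in the CD+Veh animals 2, 3, 13 and 14 was 316, 364, 289.8 and 302 CPM, and in the CD+DHT animals 6, 7, 8, 9 and 17 it was 317, 308, 349.8, 294 and 320.3 CPM. The HFHS+Veh animals 4, 5, 10 and 19 had 260.5, 324, 373 and 358 CPM. The 3 groups overlapped. CD+DHT against CD+Veh gave a log2 difference of 0.15 (SE 0.19, 95% interval -0.25 to 0.55). That fit used TMM-scaled counts, with scaling factors of 0.773 to 1.34 over the animals, and the CPM printed are not scaled in this way.

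Cdc26 was at 77.6, 56.9, 88.5 and 86.3 CPM in the CD+Veh animals, at 87.7, 70.3, 54.9, 103 and 82.8 CPM in the CD+DHT animals, and at 69.1, 79.4, 69.7 and 80.0 CPM in the HFHS+Veh animals. The lowest and the highest of all 13 animals both belonged to CD+DHT. The groups overlapped here as well.

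Ube2c came nearest to a difference. It was at 50.3, 90.9, 40.0 and 32.2 CPM in the CD+Veh animals (53.3 ± 26.08, SD, n = 4) and at 60.2, 38.3, 44.4, 37.1 and 53.3 CPM in the CD+DHT animals (46.7 ± 9.93, SD, n = 5). The HFHS+Veh animals had 31.1, 32.6, 22.9 and 48.9 CPM (33.9 ± 10.9, SD, n = 4), so 2 of the 4 lay below every CD+Veh animal and the groups overlapped. The log2 difference of CD+DHT over HFHS+Veh was 0.55 (SE 0.25, 95% interval 0.024 to 1.07; edgeR p = 0.041, adjusted p = 0.9999), and that of HFHS+Veh over CD+Veh was -0.53 (SE 0.26, 95% interval -1.07 to 0.018; edgeR p = 0.057, adjusted p = 0.9999). Neither passed the correction over all genes. Without the library of animal 4 that stood apart, the difference of HFHS+Veh over CD+Veh was -0.52 and still 0 members passed in the 2 comparisons with HFHS+Veh.

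The other members lay within the same bounds. Fitted log2 differences of the members ran from -0.48 (Anapc2) to 0.20 (Ube2s) for CD+DHT against CD+Veh, and from -0.53 (Ube2c) to 0.32 (Cdc16) for HFHS+Veh against CD+Veh. For CD+DHT against HFHS+Veh they ran from -0.48 (Cdc16) to 0.55 (Ube2c). The intervals were wide for the scarce members: that of Anapc2 in CD+DHT against CD+Veh was -2.01 to 1.04, around -0.48 (SE 0.72).

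**Figure D3:**
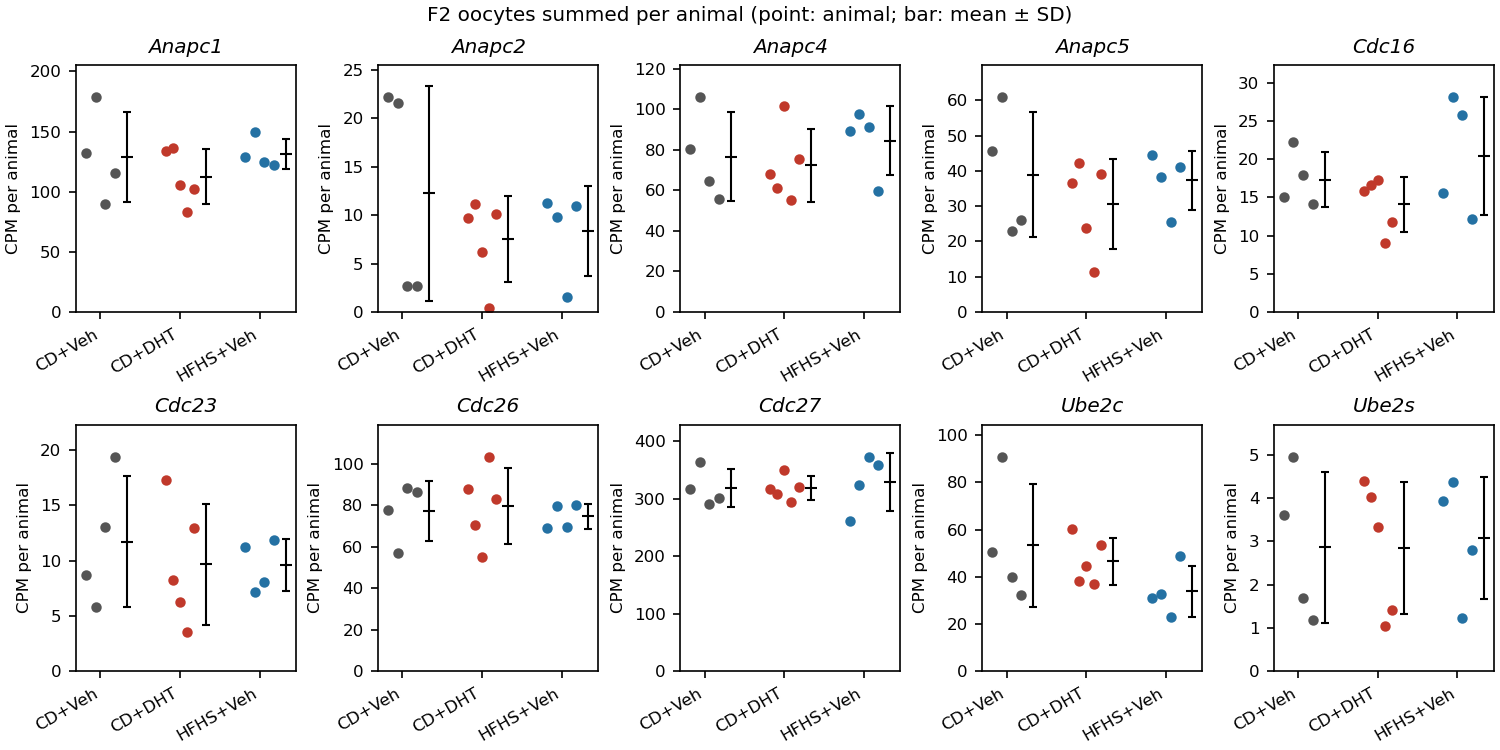
CPM of each member in the 13 F2 animals, from counts summed over each animal's kept oocytes, on axes that start at 0. Points are animals and bars the mean ± SD of CD+Veh (n = 4), CD+DHT (n = 5) and HFHS+Veh (n = 4); all 3 groups overlap for Cdc27, Cdc26 and Ube2c.

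Members differed in their spread between F2 animals. The coefficient of variation over the 13 animals was 10.12% for Cdc27, 17% for Cdc26, 20.5% for Anapc1 and 23.4% for Anapc4. For the scarcer members it was 49.0% (Ube2s) and 74.3% (Anapc2). On the log2 scale the SD of Cdc27 was 0.147, where the median of 5957 genes with a mean of at least 10 CPM was 0.408. Anapc2, whose mean was below that cut, had an SD of 1.23. Neither was set against genes of like level. Anapc2 was at 22.13, 21.5, 2.64 and 2.68 CPM in the CD+Veh animals, at 9.70, 11.2, 6.16, 0.382 and 10.14 CPM in the CD+DHT animals and at 11.2, 9.76, 1.499 and 10.9 CPM in the HFHS+Veh animals. Animals 13, 14, 9 and 10 were thus low, and they came from all 3 groups.

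Anapc5 followed Anapc2 over the animals: it was at 45.6, 60.8, 23.04 and 26.01 CPM in CD+Veh, at 36.6, 42.1, 23.7, 11.5 and 39.0 CPM in CD+DHT and at 44.5, 38.2, 25.42 and 41.1 CPM in HFHS+Veh. Spearman's rho between the 2 genes was 0.97 over the 13 animals, given as a description. Both moved with other features of the same libraries: rho with the median number of genes detected per oocyte was 0.69 for Anapc2 and 0.71 for Anapc5, and rho with Wtap was -0.87 and -0.88. The part of either in the relation was not tested. Anapc4 and Cdc26 had a rho of -0.77, and Anapc1 and Ube2s one of 0.86. The latter pair also moved with the number of genes detected, with a rho of 0.82 for Anapc1 and of 0.86 for Ube2s, and its part was not tested.

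In counts not scaled to transcript length, the summed level of the 8 core subunits lay between 561 and 815 CPM in the 13 animals. Cdc27, a transcript of 5.74 kb, made up 41.3% to 52.5% of it. These shares do not rank the subunits, since per length Cdc26 had the higher median in each F2 group. Among 4608 other genes with at least 20 CPM, those most like this sum over the 13 animals were Ccdc14 (rho 0.88) and A430033K04Rik, Abcf3, Slc39a6 and Txnrd3 (rho 0.87 each). The median rho of all 4608 genes was 0.28, 46 genes exceeded 0.8, and the sum itself had a rho of 0.56 with the number of genes detected.

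In F1, where no animal is named, counts were pooled over the oocytes of a group, and a gene was called past 1.5-fold if its pooled CPM differed at least that much at a mean of at least 10 CPM. Of the 8 members at that level, 0 were past it in any of the 5 comparisons. The share of all genes past it was 10.49% for CD+DHT against CD+Veh, 6.83% for HFHS+Veh against CD+Veh and 12.8% for HFHS+DHT against CD+Veh. It was 9.05% for HFHS+DHT against HFHS+Veh and 10.32% for HFHS+DHT against CD+DHT. For 8 genes, shares of this size amount to about 1 gene, so the count of 0 is near the background. It was also 0 in the 3 comparisons with CD+Veh without the CD+Veh oocytes 7 and 8.

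The members of largest difference were scarce or middling ones. Cdc23 was at 12.8 CPM in F1 HFHS+DHT and at 18.2 CPM in F1 HFHS+Veh, a log2 difference of -0.51. Anapc5 was at 48.0 CPM in F1 CD+DHT, 38.4 CPM in CD+Veh and 36.2 CPM in HFHS+DHT. Ube2c stayed between 45.1 CPM (HFHS+Veh) and 52.0 CPM (CD+Veh) in F1. Anapc2 and Ube2s were under the level compared: Anapc2 was at 4.66 CPM in CD+Veh and 9.29 CPM in HFHS+Veh. With oocytes left out in turn, up to 3 members went past 1.5-fold, the most without HFHS+DHT oocyte 10 (HFHS+DHT against HFHS+Veh). Counts of 1 or 2 also arose in at least 1 comparison without CD+Veh oocytes 6 or 11, CD+DHT oocytes 2 or 6, HFHS+Veh oocytes 1 or 2, or HFHS+DHT oocyte 15.

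F2 HFHS+DHT (5 oocytes) had 1 of 8 members past 1.5-fold against CD+Veh, where 11.6% of all genes were. That member was Anapc2, at 8.39 CPM against 12.7 CPM (log2 -0.59), and the direction turned when medians over oocytes were used (0.88). Cdc16 (-0.55), Ube2c (-0.48), Anapc1 (0.34) and Cdc27 (0.31) lay within 1.5-fold. Leaving out 1 oocyte at a time moved the count to 0 or 2 in 14 of 21 cases.

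In F3 the count of members past 1.5-fold was 2 of 8 for CD+DHT against CD+Veh, where 23.6% of all genes were. Cdc16 was at 18.5 CPM (Poisson 95% interval 17.32 to 19.8) in CD+DHT and at 47.8 CPM (46.1 to 49.6) in CD+Veh, a log2 difference of -1.37. Such intervals cover counting error only, and reads without molecular tags are not independent molecules. Over oocytes Cdc16 ran from 0 to 62.3 CPM (median 12.1) in CD+DHT and from 0 to 300.2 CPM (median 32.6) in CD+Veh, so the groups overlapped. The difference lay between -1.55 and -1.09 with each oocyte left out, and at -1.33 without oocyte 21.

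Anapc5 was the other one, at 68.1 CPM (65.8 to 70.5) in F3 CD+DHT and 36.7 CPM in CD+Veh, a log2 difference of 0.89. It rested on the deepest library: oocyte 14 of CD+DHT, with 105 CPM, gave 34.2% of the group's counts, and without it the difference was 0.41. With medians over oocytes (37.6 and 33.6 CPM) it was 0.16, and without oocyte 21 of CD+Veh it was 0.90.

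HFHS+Veh against CD+Veh in F3 had 1 of 8 members past 1.5-fold, where 23.8% of all genes were: Ube2c, at 17.49 CPM (14.7 to 20.7) against 10.42 CPM (9.61 to 11.3), a log2 difference of 0.75. Its oocytes ran from 1.16 to 39.7 CPM (median 18.7) and from 0 to 19.05 CPM (median 11.2), and the difference was 0.44 with a stricter filter on oocytes and 0.74 without oocyte 21 of CD+Veh. In 8 of 33 cases the count was 2 with 1 oocyte left out. CD+DHT against HFHS+Veh had 3 of 8 past 1.5-fold, where 34.6% of all genes were, and shares its groups with the other comparisons. These were Cdc16 (-1.37), Anapc5 (0.68, and -0.027 with means over oocytes) and Cdc27 (-0.59, 534 against 806 CPM). Cdc27 was within 1.5-fold with medians (-0.35), means (-0.45), mean RPKM (-0.46) or the stricter filter (-0.47). It was past it with TMM scaling (-0.66) and with all oocytes that had a gene count (-0.60). Without oocyte 2 of HFHS+Veh animal 22 the count was 1, and without its oocyte 3 it was 6. The cumulus marker sum had medians of 1791, 1622 and 1464 CPM in F3 CD+Veh, CD+DHT and HFHS+Veh.

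The generations themselves were compared after the data had been seen, within CD+Veh, whose F0 females had control diet and vehicle. Generation is confounded with anything else that differed between the sets of libraries, and these cannot be told apart. F3 CD+Veh had 6 of the 8 compared members past 1.5-fold against F1 CD+Veh, but 58.4% of all 5870 genes compared were past it too (28.4% higher and 30.1% lower), so the count is near the background. Against F2 CD+Veh it also had 6 of 8, where 62% of 6036 genes were (26.23% higher and 35.8% lower). Both comparisons share the F3 oocytes. The share of all genes whose oocytes do not overlap was not computed, so the ranges below only describe each member.

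Cdc26 was at 80.9 CPM (Poisson 95% interval 77.2 to 84.8) in F1 CD+Veh, at 74.5 CPM (72.5 to 76.6) in F2 CD+Veh and at 19.08 CPM (17.99 to 20.2) in F3 CD+Veh. The log2 differences of F3 were -2.08 from F1 and -1.97 from F2. Its oocytes ran from 0 to 107 CPM in F1 and from 0 to 50.7 CPM in F3, so a few overlapped. The overlap with F1 rested on the zeros of F1 oocytes 7 and 8: without the libraries that stood apart the F1 oocytes began at 54.9 CPM, above every F3 oocyte, and the difference was -2.11.

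Ube2c was at 52.0 CPM (49.1 to 55.1), 59.3 CPM (57.5 to 61.2) and 10.42 CPM in F1, F2 and F3 CD+Veh, with log2 differences of F3 of -2.32 from F1 and -2.51 from F2. The F3 oocytes ran from 0 to 19.05 CPM and the F2 oocytes from 19.6 to 118 CPM. The F1 oocytes ran from 3.44 to 65.1 CPM, and the overlap with F3 rested on F1 oocyte 8: without the libraries that stood apart the F1 oocytes began at 20.2 CPM, above every F3 oocyte, and the difference was -2.34.

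On the higher side, Cdc27 was at 366 CPM (358 to 374), 324 CPM (319 to 328) and 726 CPM (719 to 733) in F1, F2 and F3 CD+Veh, with log2 differences of 0.99 from F1 and 1.16 from F2. Anapc1 was at 103, 134 and 253 CPM (differences of 1.29 and 0.92) and Cdc16 at 15.2, 18.5 and 47.8 CPM (1.65 and 1.37). Cdc23 was at 16.4, 10.8 and 35.3 CPM (1.11 and 1.71). With medians over oocytes the differences from F1 and F2 were 1.01 and 1.23 for Cdc27, 0.68 and 0.71 for Anapc1, 1.02 and 1.1 for Cdc16, and 0.13 and 0.36 for Cdc23, which was then within 1.5-fold. Without the libraries that stood apart, both counts stayed at 6 and the differences of these 6 members lay between -2.50 and 1.72.

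The platform subunits Anapc4 (0.34) and Anapc5 (-0.06, and 0.0097 without the libraries that stood apart) lay within 1.5-fold in F3 against F1. F2 CD+Veh against F1 CD+Veh had 1 of 8 members past 1.5-fold, where 23.2% of all genes were: Cdc23, with a log2 difference of -0.61 that was 0.014 without F1 CD+Veh oocyte 6. With 1 oocyte left out the count was 0 in 5 of 26 cases.

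Both compared members that were past 1.5-fold lower in F3 have short transcripts. Transcript length, as implied by the ratio of deposited counts to RPKM, was 0.789 kb for Cdc26 and 0.925 kb for Ube2c, against 2.22 kb for Cdc16, 5.74 kb for Cdc27 and 8.91 kb for Anapc1. Among 306 genes under 1 kb the median log2 difference of F3 over F1 CD+Veh was -2.04 (quartiles -2.72 and -1.37), and 91.5% were past 1.5-fold lower. Some longer transcripts were low as well: among the other subunits Anapc11 (3.38 kb) was at -2.24 and Anapc10 (2.78 kb) at -1.23. Anapc2 (3.0 kb), under the level compared, was low by its F3 median but at 0.34 in this pooled comparison. The class median was -0.46 in 1216 genes of 1 to 2 kb, 0.17 in 2394 genes of 2 to 4 kb, 0.24 in 1642 genes of 4 to 8 kb and 0.33 in 311 genes over 8 kb. Cdc26 and Ube2c lay inside the quartiles of their class. Anapc4 and Anapc5 also did, while Cdc16, Cdc23, Cdc27 and Anapc1 lay above the upper quartile of theirs.

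Length classes did not part in this way between treatments within F3: for genes under 1 kb the median was 0.09 and 0.04 in CD+DHT and HFHS+Veh against CD+Veh. It was 0.21 in F2 against F1 CD+Veh and -2.18 in F3 against F2 CD+Veh. The part of transcript length in the F3 values of Cdc26 and Ube2c was not tested beyond these classes.

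**Figure D4:**
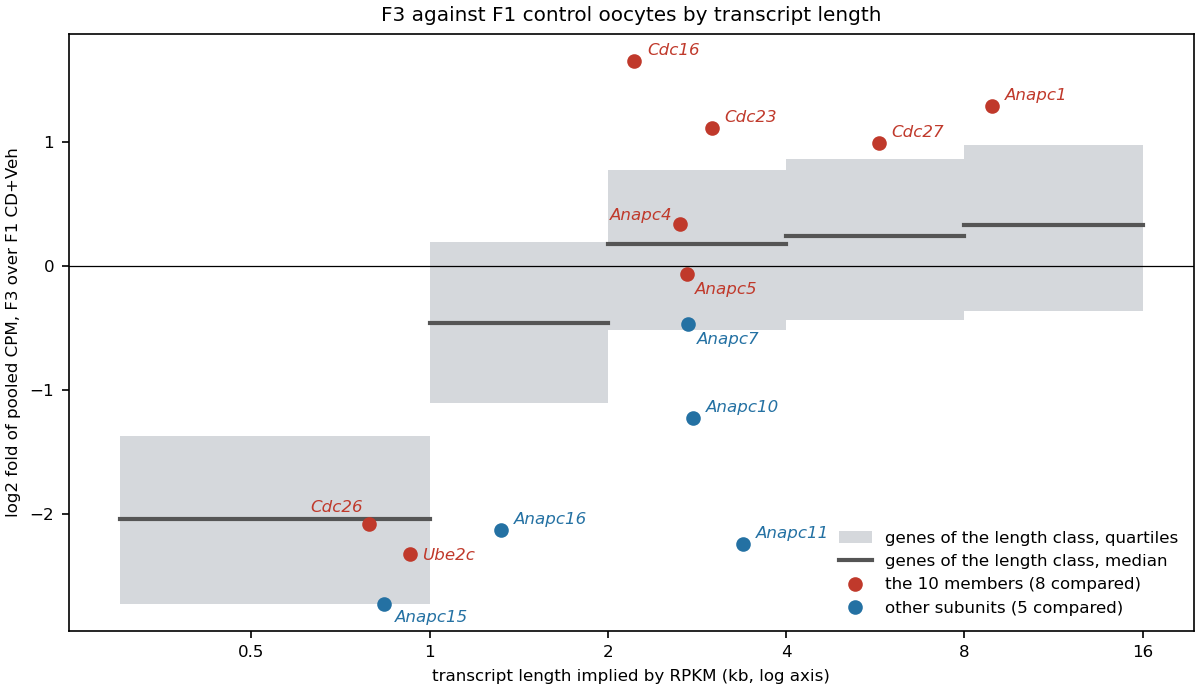
Log2 difference of pooled CPM of F3 CD+Veh over F1 CD+Veh against implied transcript length in kb on a log axis. The line and band are the median and quartiles of all genes of a length class, red points the 8 compared members and blue points the 5 other subunits; Cdc26 and Ube2c lie with the genes under 1 kb, at a median of -2.04.

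The 1 comparison of generations with animals on both sides was F3 HFHS+Veh (2 animals) against F2 HFHS+Veh (4 animals), fitted with edgeR's quasi-likelihood test after the data had been seen. It called 5 of 10 members, where 23.6% of 11844 genes were called (10.51% higher and 13.07% lower), and the median gene lay at -0.33. The F3 animals had 3472956 to 4189060 counts and the F2 animals 14675465 to 36059954.

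Cdc27 was at 260.5, 324, 373 and 358 CPM in the F2 animals 4, 5, 10 and 19 and at 821 and 789 CPM in the F3 animals 22 and 26, a log2 difference of 1.48 (SE 0.26, edgeR adjusted p = 0.0042). Cdc26 was at 69.1, 79.4, 69.7 and 80.0 CPM against 14.6 and 31.7 CPM, a difference of -1.50 (SE 0.36, adjusted p = 0.016). Anapc1 (1.07, SE 0.29, adjusted p = 0.025), Cdc16 (1.41, SE 0.43, adjusted p = 0.042) and Cdc23 (1.54, SE 0.43, adjusted p = 0.029) also rose. The 2 groups of animals did not overlap for these 5 members, nor for Ube2c and Ube2s, which did not pass. The share of all genes without overlap is not given here, so no result is read from this.

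Ube2c was at 31.1, 32.6, 22.9 and 48.9 CPM against 15.5 and 19.9 CPM, and did not pass (-0.72, SE 0.39, 95% interval -1.60 to 0.15, edgeR adjusted p = 0.21). Ube2s (-1.46, adjusted p = 0.32), Anapc2 (0.44), Anapc4 (0.25) and Anapc5 (0.40) did not pass either.

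These calls depended on animal 22, whose oocytes carry a second label of F2: without it 0 members and 1006 genes were called, with 1 F3 animal left and assumed to vary like the others. The differences were then 1.40 for Cdc27 (edgeR adjusted p = 0.051), 1.18 for Cdc23, 0.97 for Cdc16, 0.45 for Anapc1 and -1.08 for Cdc26. Without the F2 library that stood apart 5 members and 2788 genes were called. The count of members was 1 without F2 animal 19, 2 without F2 animal 4 and 3 without F2 animal 5. Without all oocytes whose labels disagree on the generation, 1 member (Cdc27, 1.66, adjusted p = 0.045) and 935 genes were called, with the remaining F3 animal assumed to vary like the others. In animal 22 Cdc26 was at 14.6 CPM and Wtap at 23.6 CPM, where the F3 animal 26 had 31.7 and 77.2 CPM. In animal 10, titled F2 with a second label of F3, they were at 69.7 and 15350 CPM.

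The rest of the pathway was read from 4 lists. In the F2 tests 0 of the 6 other subunits, 0 of 9 activators and inhibitors, 0 of 14 substrates and 0 of 3 other conjugating enzymes passed. For CD+DHT against CD+Veh their median log2 differences were -0.21, 0.00, 0.11 and 0.35, beside -0.01 for all genes and -0.01 for the members. For HFHS+Veh against CD+Veh they were -0.19, -0.08, 0.06 and 0.22, beside 0.02 for all genes and 0.09 for the members. The gene of largest difference, chosen as such, was Hmmr, a spindle protein and substrate, in both (-0.68 and -0.64), and Ube2d2a, a conjugating enzyme, had 0.43 and 0.55. The inhibitor gene Fbxo43 had 0.25 and 0.26, also without passing.

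In the F1 comparisons between 0 and 1 gene of each list was past 1.5-fold, where 6.83% to 12.8% of all genes were. The genes of largest difference among those past it were Anapc15 (-0.73, CD+DHT against CD+Veh), Ube2d1 (0.63, HFHS+Veh against CD+Veh) and Anapc16 (-0.81), Fbxo5 (-0.71) and the kinase Plk1 (-0.66) in HFHS+DHT against CD+Veh. Plk1 was also the gene past it in HFHS+DHT against HFHS+Veh (-0.83). In F3 the kinase Nek2 was at 25.02 CPM in CD+DHT and at 9.204 CPM in CD+Veh (1.44), and Anapc7 had 0.60 in that comparison. There 2 of 12 substrates and 1 of 4 other subunits were past 1.5-fold higher, 0 were lower, and 0 of 7 activators and inhibitors and 0 of 3 other conjugating enzymes were past it, where 23.6% of all genes were.

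Between generations, 4 of 5 other subunits were past 1.5-fold lower in F3 than in F1 CD+Veh: Anapc10 (-1.23), the RING subunit Anapc11 (-2.24), Anapc15 (-2.72) and Anapc16 (-2.13), with a median of -2.13 beside 0.02 for all genes, of which 28.4% were higher and 30.1% lower. Anapc15 (0.838 kb) belongs to the genes under 1 kb, whose median was -2.04 and of which 91.5% were past 1.5-fold lower. Anapc16 (1.32 kb) belongs to the class of 1 to 2 kb, with a median of -0.46. Anapc10 and Anapc11 belong to that of 2 to 4 kb, with a median of 0.17. The part of transcript length in these values was not tested. Of 7 activators and inhibitors 2 were lower, the activator Cdc20 (-1.22) and the checkpoint silencer Mad2l1bp (-1.16). Of 13 substrates 3 were higher, among them cyclin B1 (Ccnb1, 1.02), and 4 lower, among them securin (Pttg1, -1.91) and Aurkb (-1.28). The counts of these 2 lists are near the share of all genes. Of the 3 other conjugating enzymes 0 were past it, with Ube2d3 at 0.58.

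The tested comparison, F3 against F2 HFHS+Veh, had 4 of 6 other subunits lower and 0 higher: Anapc10 (-1.04), Anapc11 (-2.04), Anapc16 (-1.35) and Anapc13. Anapc13 had 1 count over the F3 oocytes (0.131 CPM, Poisson 95% interval 0.0033 to 0.727) and 545 over the F2 oocytes (6.32 CPM, interval 5.80 to 6.87). Of 9 activators and inhibitors 2 rose, the checkpoint genes Mad2l1 (1.10) and Bub3 (0.97). Of 14 substrates Ccnb1 (1.23) and Ccnb2 (1.31) rose and Pttg1 (-1.79) and Gmnn (-0.79) fell, and 0 of 3 other conjugating enzymes passed. Of all genes 10.51% were called higher and 13.07% lower, and the number called fell from 2793 to 1006 without F3 animal 22. These genes were named after their values were seen. Length classes were not compared here, so the part of transcript length was not tested.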

How the data were processed

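The authors deposited raw counts per gene and, separately, RPKM per gene for each oocyte; alignment used STAR 2.4.2a on mm10, with Seurat 2.0 also listed, per the submitters' processing notes. How reads were counted, with which annotation and with or without strand, is not given in the sources used here. In all, the deposited count table held 24582 lines, of which 92 were spike-ins (median 0.252% of reads in kept oocytes) and 24489 gene lines with 23997 symbols; 27 symbols had been turned into dates. CPM were computed from gene counts without spike-ins. F2 animals were tested on summed counts with edgeR 4.0.16 (TMM, filterByExpr, quasi-likelihood, Benjamini-Hochberg threshold 0.05), with DESeq2 1.42.0 and limma 3.58.1 as alternatives, in R 4.3.3. The p-values set a group difference against the spread between these animals, estimated with information from all genes. Other groups were pooled, with exact Poisson 95% intervals. Python 3.11.15, numpy 2.4.6, pandas 2.3.3, scipy 1.17.1 and matplotlib 3.10.9 were used, and the fits were tested on simulated data. No 2 kept libraries of the same group held identical counts, and pairs across groups were not compared.

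The members and lists were chosen with earlier results of these data known. By rule all 10 members were named, list genes that passed the F2 test were named, and otherwise each list was given by counts, its median and its gene of largest difference at a mean of at least 10 CPM. Gene positions are from GENCODE on GRCm38, and promoters from RefSeq. The generation and length comparisons were added after seeing the data.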

Additional observations from a re-analysis of the deposited data

Results flagged for a closer look

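Over 60 groups of 4 to 10 values, 2 held a value far from the rest, where chance gives about 1 in 20. Anapc2 was at 1.499 CPM in F2 HFHS+Veh animal 10, and the other 3 animals lay between 9.76 and 11.2 CPM. Cdc16 was at 69.4 CPM in F1 CD+Veh oocyte 7, where the next highest of the 10 oocytes had 29.8 CPM and the lowest 5.49 CPM. Oocyte 7 is 1 of the 4 libraries that stood apart, with 2.66% of its counts in spike-ins (median 0.252% over kept oocytes), an oocyte marker sum of 8058 CPM and Cdc26 at 0. The part of these in its Cdc16 value was not tested.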

How the results depend on the processing

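No paired analysis was possible because the numbers that groups share only count oocytes, and the animal numbers of F2 differ between groups. Low counts limit Anapc2 and Ube2s most. Without the 4 libraries that stood apart, counts of members kept their values in all 11 comparisons that use them. In the F2 tests DESeq2 called 1 gene in each comparison. With limma on the mean log2(CPM + 1) of each animal's oocytes, signs turned in CD+DHT against CD+Veh for Anapc4 (-0.035), Cdc26 (-0.19), Cdc27 (-0.019), Ube2c (-0.53) and Ube2s (-0.016), in HFHS+Veh against CD+Veh for Anapc1 (-0.035) and Anapc5 (-0.012), and in CD+DHT against HFHS+Veh for Cdc23 (-0.020) and Cdc27 (-0.027); none of these passed in either fit. Without oocytes of contradictory generation they turned in HFHS+Veh against CD+Veh for Anapc2 (0.28), Cdc16 (-0.0077) and Cdc27 (-0.10), and in F3 against F2 HFHS+Veh for Anapc2 (-1.96), where 935 genes and 1 member were called.

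With 1 animal left out at a time, log2 differences in CD+DHT against CD+Veh ran from -0.12 to 0.024 (Anapc1), -0.80 to 0.012 (Anapc2), -0.068 to 0.19 (Anapc4), -0.58 to 0.16 (Cdc23), -0.051 to 0.31 (Cdc26), -0.10 to 0.23 (Ube2c) and -0.016 to 0.44 (Ube2s). In CD+DHT against HFHS+Veh they ran from -0.42 to 0.20 (Anapc2), -0.26 to 0.21 (Cdc23), -0.019 to 0.31 (Cdc26), -0.11 to 0.17 (Cdc27) and -0.25 to 0.16 (Ube2s). In HFHS+Veh against CD+Veh they ran from -0.70 to 0.10 (Anapc2), -0.070 to 0.21 (Anapc5), -0.60 to 0.12 (Cdc23), -0.24 to 0.11 (Cdc26), -0.022 to 0.26 (Cdc27) and -0.0013 to 0.46 (Ube2s). In F3 against F2 HFHS+Veh the count ran from 1006 to 3336 genes and from 0 to 5 members, Anapc2 from -1.32 to 1.19 and Anapc4 from -0.15 to 0.55.

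Counts of members past 1.5-fold in F1 CD+DHT against CD+Veh were 1 with means over oocytes and 1 with mean RPKM. HFHS+DHT gave 1 with medians, means or mean RPKM against CD+Veh and against CD+DHT, and against HFHS+Veh 2 with medians, 1 with means and 1 with mean RPKM. F2 HFHS+DHT gave 0 with means, TMM scaling or mean RPKM, and Anapc2 was 0.88 with medians. F3 HFHS+Veh against CD+Veh gave 0 with the stricter filter (at least 500000 counts and 6000 genes). F3 CD+DHT against HFHS+Veh gave 1 with means or mean RPKM, and Anapc5 was -0.027 and -0.022 there. F2 against F1 CD+Veh gave 0 with medians. With oocytes left out in turn, counts ran from 0 to 1 (F1 CD+DHT and HFHS+Veh against CD+Veh, F2 against F1 CD+Veh, where Cdc23 ran from -0.93 to 0.014), 0 to 2 (F1 HFHS+DHT against CD+DHT and CD+Veh, F2 HFHS+DHT), 0 to 3 (F1 HFHS+DHT against HFHS+Veh), 1 to 2 (F3 HFHS+Veh against CD+Veh) and 1 to 6 (F3 CD+DHT against HFHS+Veh). The order of members by RPKM kept 8 of 10 ranks with means in place of medians. Another scaling moved the median gene: F3 against F1 CD+Veh from 0.02 to -0.43 with medians over oocytes and to 0.22 with TMM, and F3 against F2 CD+Veh from -0.12 to -0.51 and 0.23. The cause was not tested.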
